A study of Homo sapiens with 6 samples.

Results

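The genes described here encode enzymes that supply, convert and remove the building blocks of DNA. Of 9 enzymes named for this role (TYMS, RRM1, RRM2, TK1, DTYMK, DUT, DCK, CAD and SAMHD1), 8 were measured by a probe set that carries their symbol alone, among 22411 genes in all. The ninth, RRM1, was covered by 1 probe set that also carries LINC02749, and its value is given under both names. Each gene was read from its brightest probe set. The 2 groups were HCT-shSLBP cells given doxycycline at 2 µg/ml and the same cells left untreated, with 3 separate cultures in each. HCT-shSLBP derives from the colon cancer line HCT116 and is named after a short hairpin RNA against SLBP, the protein that binds the stem-loop of replication-dependent histone mRNAs. By the name of the line all 6 cultures carry the hairpin, and no doxycycline-treated culture without it is part of the comparison, so the drug and the hairpin cannot be told apart. Total RNA of each culture was hybridised to 1 Affymetrix transcriptome array, and values are RMA signals on the log2 scale. How long the drug was present is not stated in the labels.

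Cells make deoxynucleotides mainly by reducing ribonucleotides, a step carried out by ribonucleotide reductase, which joins a large subunit (RRM1) to a small one (RRM2, or RRM2B outside S phase). Thymidylate is made from dUMP by thymidylate synthase (TYMS) or salvaged from thymidine by thymidine kinase (TK1), while SAMHD1 breaks deoxynucleoside triphosphates down again. Several of these genes, RRM2, TYMS and TK1 among them, are known to be most active around S phase in dividing cells, and TYMS and ribonucleotide reductase are drug targets in colorectal and other cancers.

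SLBP, the target of the hairpin, had log2 signals of 7.38, 7.19 and 7.32 in treated cultures, against 8.09, 8.04 and 8.08 in untreated cultures. It was down by a log2 change of -0.77 (SE 0.055, limma adjusted p = 0.00322), and an exact two-sided permutation test gave p = 0.1, the smallest that 3 cultures against 3 allow. Over all genes, 656 rose and 732 fell after Benjamini-Hochberg adjustment, where an adjusted p under 0.05 by limma is what both words refer to, and the median log2 change was -0.02. The label of a colon cancer line was checked against 8 markers of colon epithelium, all of which lay above 4.51, the 95th percentile of 366 olfactory receptor genes. That level was exceeded by 14783 of all 22411 genes. CDX1, CDX2 and LGALS4 lay least far above it, while 3 of 5 fibroblast markers and 3 of 7 blood and endothelium markers also exceeded it. The fibroblast marker COL1A1 (means 6.37 in treated and 6.27 in untreated cultures) was brighter than CDX1 (5.25 and 5.34), CDX2 and LGALS4. The mean over the epithelial markers was 8.15 to 8.22 in treated cultures and 8.17 to 8.24 in untreated cultures. That over the fibroblast markers was 3.96 to 4.02 in treated and 3.95 to 3.997 in untreated cultures. That over the blood and endothelium markers was 3.64 to 3.75 in treated and 3.67 to 3.70 in untreated cultures. No member of the 3 marker lists passed limma's test, and 2 had an unadjusted p under 0.05.

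Of the 8 enzymes measured alone, 4 fell in doxycycline-treated cells: TK1, TYMS, RRM2 and SAMHD1. By the same test 3.27% of all genes fell and 6.19% passed in either direction. None of the 8 rose, while DUT, DTYMK, DCK and CAD did not pass. At an unadjusted p under 0.05, 6 of the 8 were lower and none was higher, against 12.7% of all genes lower and 9.85% higher at that level. The median log2 change of the 8 was -0.19, with a range of -0.57 to 0.03. The groups did not overlap in 6 of the 8, all lower in treated cells, as in 16.7% of all genes. All 8 lay above the olfactory receptor level. Of the 4 falls, 3 held without treated replicate 1, 2 without untreated replicate 2, 1 without treated replicate 2, untreated replicate 1 or untreated replicate 3, and 0 without treated replicate 3. Since the arrays measured RNA of whole cultures, fewer cells in S phase and less RNA per cell cannot be told apart for any gene described here.

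**Figure D1:**
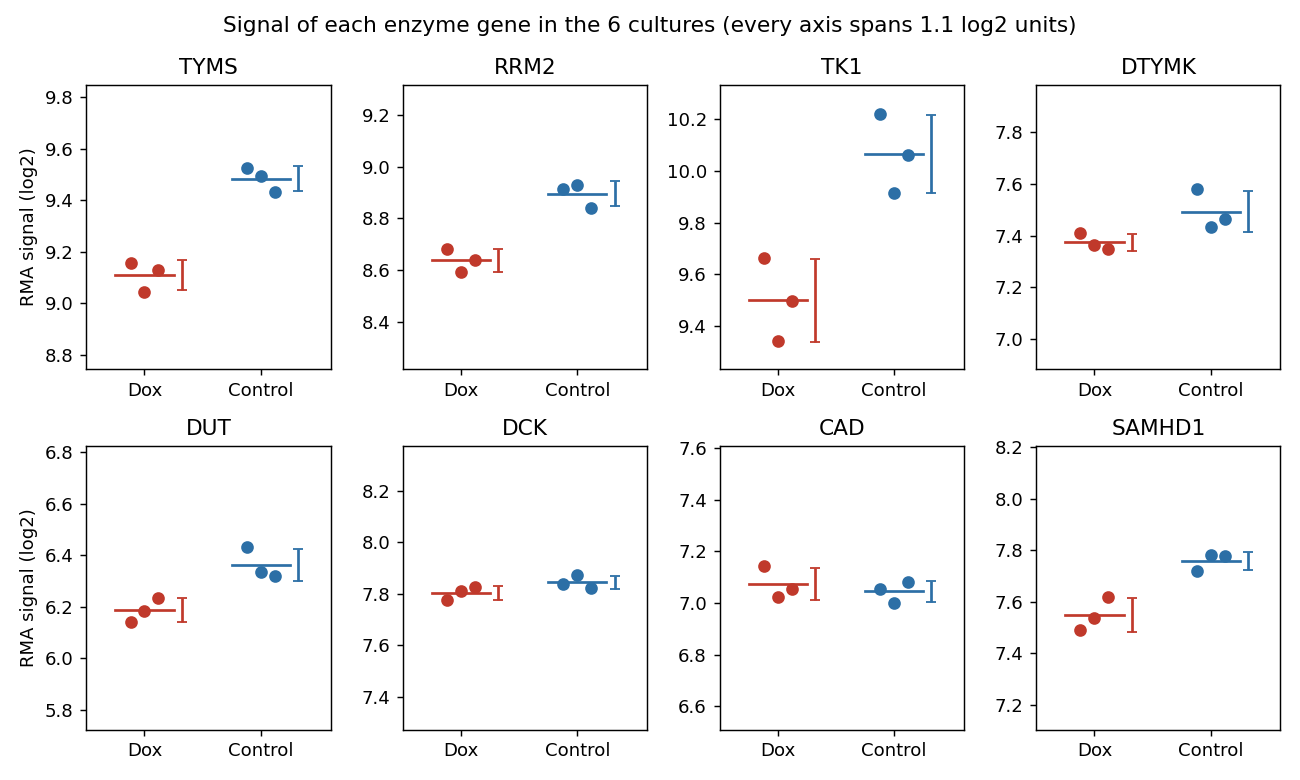
RMA signal (log2) of each of the 8 enzyme genes, with 1 point per culture, 3 treated (Dox, left) and 3 untreated (Control, right), a line at the group mean and a bar of ± 1 SD; every vertical axis spans the same range. TK1, TYMS, RRM2, SAMHD1, DUT and DTYMK are lower in every treated culture than in any untreated one, while DCK and CAD overlap.

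The thymidylate branch held the largest changes. TK1, which phosphorylates thymidine taken up or recycled by the cell, had signals of 9.66, 9.34 and 9.49 in treated cultures, against 10.22, 9.92 and 10.06 in untreated cultures. The groups stood apart by 0.25 although both were spread out, with 9.50 ± 0.16 in treated and 10.07 ± 0.15 in untreated cells (SD, n = 3 each). The log2 change of TK1 was -0.57 (SE 0.10, 95% interval -0.81 to -0.33, limma adjusted p = 0.0253), or 67.5% of the signal in untreated cells. Replicate 1 was the highest and replicate 2 the lowest culture of its group in both groups. The call was lost without treated replicate 2 or 3 or untreated replicate 1 or 3, with limma adjusted p up to 0.0906.

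TYMS, which methylates dUMP to dTMP with a folate cofactor, had signals of 9.16, 9.04 and 9.13 in treated cultures, against 9.53, 9.49 and 9.43 in untreated cultures. The highest treated culture lay 0.27 below the lowest untreated one, more than the whole spread within either group. The log2 change was -0.37 (SE 0.047, 95% interval -0.48 to -0.26, limma adjusted p = 0.0103), or 77.2% of the signal in untreated cells. Among the 4 enzymes that fell it had the smallest adjusted p, and it kept its call in 5 of the 6 fits that left out 1 array. The exception was the fit without treated replicate 3 (limma adjusted p = 0.0524). TYMSOS, a transcript from the opposite strand at the TYMS locus, had signals of 5.88, 5.64 and 5.82 in treated cultures, against 6.08, 5.82 and 5.86 in untreated cultures. Its groups overlapped, and its log2 change of -0.14 (SE 0.087) did not pass (limma adjusted p = 0.405).

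DTYMK, which carries dTMP from both routes on to dTDP, had signals of 7.41, 7.36 and 7.35 in treated cultures, against 7.58, 7.43 and 7.46 in untreated cultures. The groups were separated by only 0.02, and the log2 change of -0.12 (95% interval -0.24 to -0.0016) did not pass (limma adjusted p = 0.215). DUT, which hydrolyses dUTP and so both keeps uracil out of DNA and yields dUMP for TYMS, had signals of 6.14, 6.18 and 6.23 in treated cultures, against 6.43, 6.33 and 6.32 in untreated cultures. Every treated culture was below every untreated one, yet the log2 change of -0.18 (SE 0.047) did not pass (limma adjusted p = 0.0757). With background subtraction or without dim genes, 2 settings that test fewer genes, DUT did pass, with limma adjusted p of 0.0428 and 0.0224.

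In ribonucleotide reductase, the small subunit gene RRM2 had signals of 8.68, 8.59 and 8.64 in treated cultures, against 8.92, 8.93 and 8.84 in untreated cultures. The groups did not overlap, and the log2 change was -0.26 (SE 0.044, 95% interval -0.36 to -0.15, limma adjusted p = 0.0214), or 83.6% of the untreated signal. The call of RRM2 held without treated replicate 1 and was lost whenever another array was left out, in 5 fits, with limma adjusted p up to 0.0847. A second probe set, named C2orf48 on the platform and listed under RRM2 by RefSeq, had a log2 change of -0.12 (SE 0.060), and limma adjusted p was 0.405 in a fit of every probe set.

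The probe set that carries RRM1, the catalytic large subunit, together with LINC02749 had signals of 8.63, 8.59 and 8.61 in treated cultures, against 8.81, 8.80 and 8.78 in untreated cultures. It was the tightest of the enzyme signals, with an SD of 0.019 in treated and 0.012 in untreated cells, and its groups lay 0.16 apart. In the fit of every probe set its log2 change was -0.19 (SE 0.045, 95% interval -0.30 to -0.08), which did not pass (limma adjusted p = 0.128), but no enzyme of the 8 passed in that fit either. RRM2B, the alternative small subunit and a known p53 target, had signals of 8.37, 8.42 and 8.39 in treated cultures, against 8.19, 8.27 and 8.21 in untreated cultures. Every treated culture was higher than every untreated one, in the direction opposite to RRM2. Its log2 change of 0.17 (SE 0.039, 95% interval 0.08 to 0.26) missed the threshold narrowly (limma adjusted p = 0.0504), with adjusted p of 0.0132 to 0.183 under other settings.

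**Figure D2:**
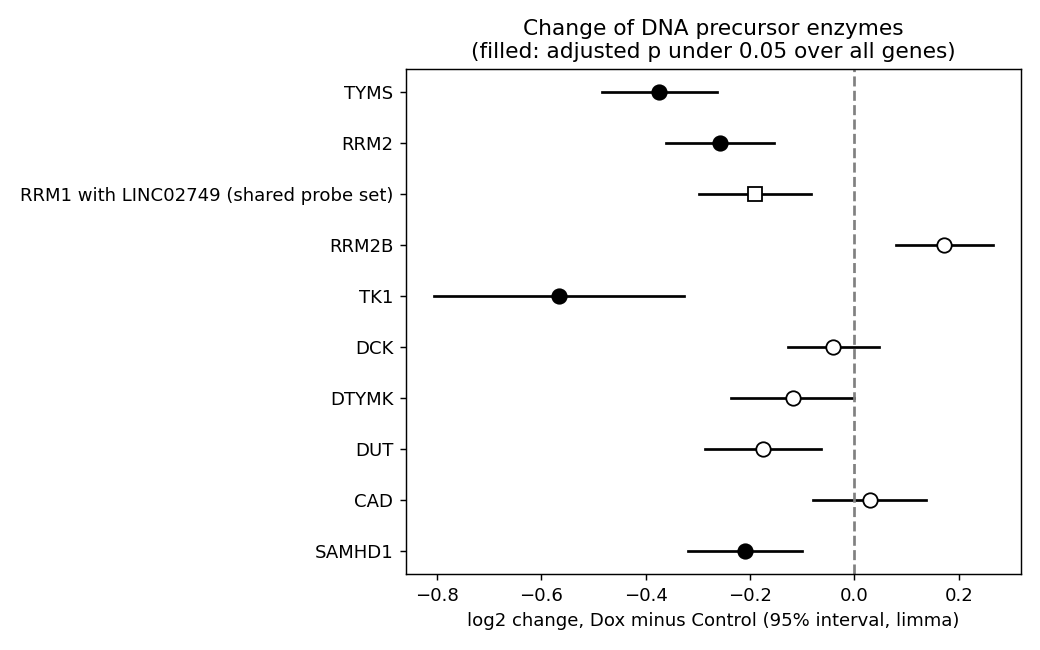
Log2 change, treated (Dox) minus untreated (Control), on the horizontal axis, with limma's 95% interval for 9 enzyme genes and, as a square, the probe set shared by RRM1 and LINC02749. Filled symbols mark TYMS, RRM2, TK1 and SAMHD1, which passed in the fit over 22411 genes. The square comes from the separate fit of every probe set, in which none of the 8 enzymes passed either. RRM2B alone lies to the right with an interval that stays above 0.

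SAMHD1, the triphosphohydrolase that empties the deoxynucleotide pool, also fell. Its signals were 7.49, 7.54 and 7.62 in treated cultures, against 7.72, 7.78 and 7.78 in untreated cultures, with no overlap between the groups. The log2 change was -0.21 (SE 0.046, 95% interval -0.32 to -0.10, limma adjusted p = 0.0459), or 86.5% of the untreated signal. This call was the least stable of the 4: it was lost when any 1 of the 6 arrays was left out, with adjusted p of 0.0751 to 0.147, and with repeated quantile normalization (adjusted p = 0.0563) or median centring (adjusted p = 0.0595).

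In the 2 remaining enzymes the groups overlapped. DCK, which starts the salvage of deoxycytidine and other deoxynucleosides, had signals of 7.77, 7.81 and 7.83 in treated cultures, against 7.84, 7.87 and 7.82 in untreated cultures. Its log2 change of -0.04 had a 95% interval of -0.13 to 0.05 (limma adjusted p = 0.58). CAD, the multifunctional enzyme that opens pyrimidine synthesis, had signals of 7.14, 7.02 and 7.06 in treated cultures, against 7.05, 7.00 and 7.08 in untreated cultures. Its log2 change of 0.03 had a 95% interval of -0.08 to 0.14 (limma adjusted p = 0.758), and its sign turned without treated replicate 1 (-0.0046).

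Whether enzymes changed unequally was tested on the difference between 2 log2 signals within each culture, since such a difference is free of any factor that scales a whole array. The size of a difference within 1 group has no meaning of its own, because probe sets respond unequally, so only the shift between groups is compared. In all, 5 pairs were compared, and an exact two-sided permutation test over 3 cultures against 3 cannot go below p = 0.1, or 0.125 adjusted over these pairs. The pairs were chosen with earlier results of these data known. Each shift equals the difference between the log2 changes of its 2 genes, so it adds no separate support for the change of either gene.

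TK1 minus DCK, the thymidine against the deoxycytidine kinase, was 1.89, 1.53 and 1.67 in treated cultures, against 2.38, 2.04 and 2.24 in untreated cultures, a shift of -0.53. RRM2 minus RRM2B, the 2 small subunits, was 0.31, 0.17 and 0.25 in treated cultures, against 0.73, 0.66 and 0.63 in untreated cultures, a shift of -0.43. TYMS minus CAD was 2.02, 2.02 and 2.07 in treated cultures, against 2.47, 2.49 and 2.35 in untreated cultures, a shift of -0.40. In these 3 pairs every treated culture lay below every untreated one, by far more than in RRM2 minus the RRM1 probe set. That difference was 0.053, 0.0013 and 0.033 in treated cultures, against 0.11, 0.13 and 0.056 in untreated cultures, a shift of -0.068 with groups that just missed overlapping. It came to -0.00051 when the C2orf48 probe set was averaged into RRM2. These 4 pairs reached the smallest p allowed (exact permutation p = 0.1, adjusted p = 0.125). TYMS minus SAMHD1 was 1.67, 1.505 and 1.508 in treated cultures, against 1.81, 1.71 and 1.65 in untreated cultures, and these groups overlapped (shift -0.16, exact permutation p = 0.2, adjusted p = 0.2).

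**Figure D3:**
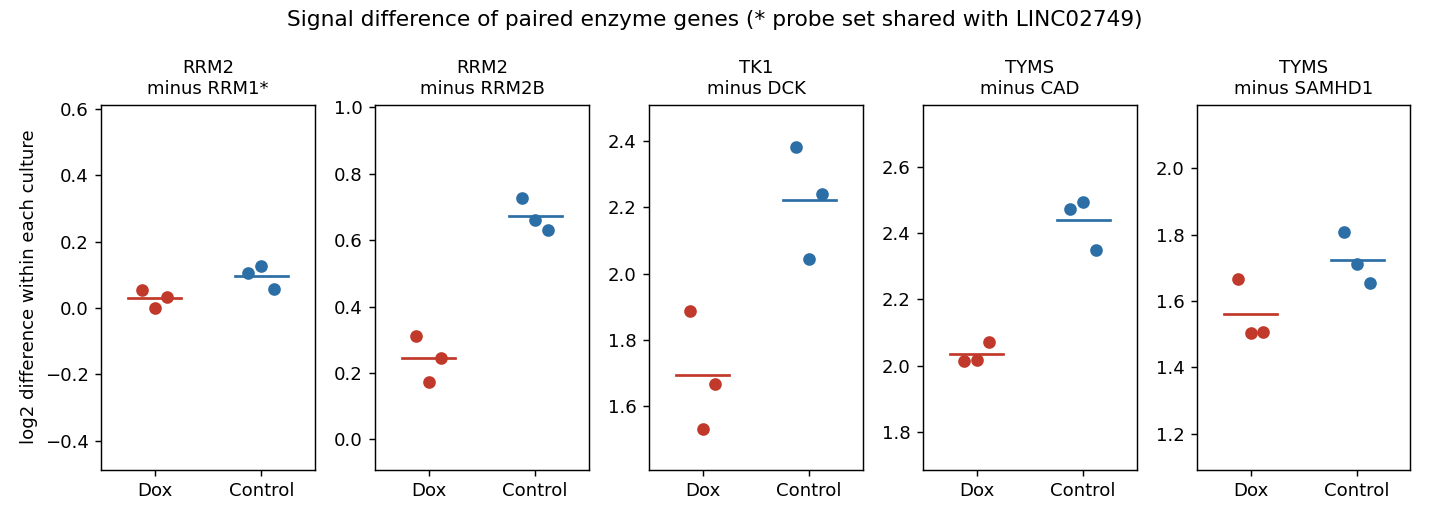
Difference of 2 log2 signals within each culture for 5 pairs of enzyme genes, with 1 point per culture, treated (Dox) left and untreated (Control) right, and a line at the group mean. The shift is -0.53 for TK1 minus DCK, -0.43 for RRM2 minus RRM2B and -0.40 for TYMS minus CAD, against -0.068 for RRM2 minus the probe set RRM1 shares with LINC02749.

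For TK1, TYMS and RRM2, the genes with the closest profiles over the cultures were sought. Likeness was measured as the root mean square difference over the 6 arrays, each gene taken relative to its own untreated mean, among 11198 other genes at or above the median level. Closest to TK1 were MCM2 (0.033), FEN1 (0.051) and SLC25A10 (0.065), with log2 changes of -0.58, -0.60 and -0.51. Closest to TYMS were DPYSL5 (0.018), CHMP6 (0.019) and AXIN2 (0.024), with log2 changes of -0.39, -0.36 and -0.37. Closest to RRM2 were DYNLL2 (0.019), PSMD11 (0.021) and the pseudogene HNRNPA3P5 (0.022), with log2 changes of -0.25, -0.27 and -0.24. TYMS and RRM2 differed by 0.084, TYMS and TK1 by 0.17, and RRM2 and TK1 by 0.25. The genes named above were picked as the closest of 11198, so larger distances between the enzymes are no result. Ranked among those genes by distance from TYMS, RRM2 came at place 193 and TK1 at 1435. By distance from RRM2, TYMS came at place 865 and TK1 at 8874. By distance from TK1, TYMS came at place 96 and RRM2 at 409. These values are descriptions over 6 arrays that share the treatment difference.

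The sequence before the transcription start is shown for the 4 enzymes that fell and for DCK and CAD, which did not pass, so that the letters of motifs common at genes of the cell cycle can be compared. Sequences are RefSeq's, build GRCh38.p14, the 200 bases before the outermost listed start, 5′ to 3′ on the gene's strand. Capitals mark matches, on either strand, to E2F-type letters, which are TTCCCGC or the same word with any other pair of C and G letters in the third and the fourth place. They also mark the word CCAAT and the GC box, spelled GGGCGG.
TK1, chr17:78187205-78187404, minus strand: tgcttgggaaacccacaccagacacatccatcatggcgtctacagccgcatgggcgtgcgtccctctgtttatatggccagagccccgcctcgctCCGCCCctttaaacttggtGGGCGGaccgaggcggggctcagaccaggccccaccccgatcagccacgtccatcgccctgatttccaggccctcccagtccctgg
TYMS, chr18:657453-657652, plus strand: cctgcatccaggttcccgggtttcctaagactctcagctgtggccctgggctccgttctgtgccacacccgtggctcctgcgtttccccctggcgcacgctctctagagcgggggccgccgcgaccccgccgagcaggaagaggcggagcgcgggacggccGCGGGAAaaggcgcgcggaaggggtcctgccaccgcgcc
RRM2, chr2:10122368-10122567, plus strand: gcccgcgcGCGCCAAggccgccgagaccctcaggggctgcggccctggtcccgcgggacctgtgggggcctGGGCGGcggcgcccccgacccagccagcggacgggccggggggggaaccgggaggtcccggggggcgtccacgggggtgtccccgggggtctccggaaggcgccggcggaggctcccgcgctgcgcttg
SAMHD1, chr20:36951709-36951908, minus strand: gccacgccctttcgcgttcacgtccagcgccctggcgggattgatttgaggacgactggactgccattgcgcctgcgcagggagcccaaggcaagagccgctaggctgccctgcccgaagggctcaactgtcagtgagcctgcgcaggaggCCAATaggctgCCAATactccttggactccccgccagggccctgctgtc
DCK, chr4:70993449-70993648, plus strand: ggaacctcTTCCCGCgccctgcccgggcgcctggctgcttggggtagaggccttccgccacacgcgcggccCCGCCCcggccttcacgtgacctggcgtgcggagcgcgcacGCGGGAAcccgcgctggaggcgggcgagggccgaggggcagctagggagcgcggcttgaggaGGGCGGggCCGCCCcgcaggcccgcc
CAD, chr2:27217169-27217368, plus strand: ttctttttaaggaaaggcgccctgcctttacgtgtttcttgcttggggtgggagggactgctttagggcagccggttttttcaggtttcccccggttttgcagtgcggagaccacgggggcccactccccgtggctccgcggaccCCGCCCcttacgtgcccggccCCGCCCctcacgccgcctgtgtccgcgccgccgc

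Windows of 250 bases before to 50 after each start were listed for all 9 enzymes, 14 windows in all. Windows of nearby starts of a gene can overlap, so the same site can be counted more than once, as with the GC boxes of TK1. E2F-type letters stood in 6 of the 14, against 13.0% of 35116 windows of all genes, CCAAT in 7, against 34.6%, and the GC box in 10, against 45.0%. By gene, E2F-type letters stood in 6 of the 9 enzymes, CCAAT in 6 and the GC box in 7, and the share of all genes was not counted. Within a window, no 2 matches overlapped. The E2F-type match of TYMS lies 39 bases before its start. SAMHD1 has 2 CCAAT matches, 49 and 38 bases before its start, and no E2F-type letters. The inner start of RRM2, not shown, has 3 CCAAT matches, 123, 93 and 66 bases before it, and the inner start of TK1, also not shown, has CCAAT matches 77 and 46 bases before it and an E2F-type match 12 bases before it. DCK, which did not pass, has 3 E2F-type matches in its window, more than any enzyme that fell, and CAD has none. A match describes letters only, and binding was not measured.

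Around these enzymes, 80 further genes of nucleotide metabolism were listed in 7 groups, of which 71 were measured alone. Of these 4 fell and 2 rose, set against 3.27% and 2.93% of all genes. The falls lay in pyrimidine synthesis, pool cleaning and the folate cycle, and both rises lay in breakdown. At an unadjusted p under 0.05, the level also counted for each list, 22.6% of all genes were called in either direction. With 1 array left out, 4 of these 71 genes were called without treated replicate 1, 2 without treated replicate 2, 1 without untreated replicate 2, and 0 without treated replicate 3, untreated replicate 1 or untreated replicate 3.

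In pyrimidine synthesis, 1 of 9 fell and none rose, with 4 at an unadjusted p under 0.05, against 22.6% of all genes, and a median of -0.09. The gene that fell was CTPS1, which aminates UTP to CTP, the source of the cytosine nucleotides. Its signals were 7.36, 7.39 and 7.42 in treated cultures, against 7.68, 7.69 and 7.65 in untreated cultures. Its groups stood clearly apart, with a log2 change of -0.28 (SE 0.036, limma adjusted p = 0.0108). This call was lost without treated replicate 3 or untreated replicate 1 or 3, with adjusted p up to 0.0525. NME1, a nucleoside diphosphate kinase, did not pass (-0.13, adjusted p = 0.071). Among 8 other reductase and salvage kinase genes none passed limma's test, with 3 at an unadjusted p under 0.05 (22.6% of all genes), and after RRM2B the smallest adjusted p was that of AK1, an adenylate kinase (-0.17, adjusted p = 0.105).

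Of 7 genes that clean the pool or act on uracil in DNA, 2 fell and none rose, against 3.27% and 2.93% of all genes. At an unadjusted p under 0.05 there were 3, against 22.6% of all genes, and the median was -0.11. UNG, the uracil-DNA glycosylase that removes uracil once it is in DNA, had signals of 7.95, 7.86 and 7.999 in treated cultures, against 8.29, 8.22 and 8.20 in untreated cultures. All treated cultures were lower, with a log2 change of -0.30 (SE 0.049, limma adjusted p = 0.0197), and the call held only without treated replicate 1 or 2 among the fits with 1 array removed. NUDT5, a hydrolase of ADP-ribose and oxidised nucleotides, fell as well (-0.25, SE 0.047, adjusted p = 0.0296), and kept its call only without treated replicate 1.

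Breakdown enzymes held the 2 rises. Of 17, 2 rose and none fell, against 2.93% and 3.27% of all genes, and the median was 0.02. At an unadjusted p under 0.05 there were 5, against 22.6% of all genes. CDA, which deaminates cytidine and deoxycytidine, had signals of 7.73, 7.77 and 7.76 in treated cultures, against 7.54, 7.32 and 7.54 in untreated cultures. The treated cultures were tightly grouped above all untreated ones, of which replicate 2 was the lowest, and the change was 0.29 on the log2 scale (SE 0.064, limma adjusted p = 0.0465). NT5C2, a cytosolic nucleotidase that prefers purine monophosphates, rose by less (0.18, SE 0.040, adjusted p = 0.0482). Both calls were lost when any 1 of the 6 arrays was removed, with adjusted p of 0.062 to 0.138 for CDA and 0.0644 to 0.155 for NT5C2. Median centring lost both as well, with adjusted p of 0.0558 for CDA and 0.0599 for NT5C2, as did the replicate block (0.0927 and 0.0766) and the fit of every probe set (0.143 and 0.175), and repeated quantile normalization lost NT5C2 (0.0516).

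In the folate cycle, which feeds the methyl group to TYMS, 1 of 9 fell and none rose, with 6 at an unadjusted p under 0.05, against 22.6% of all genes, and a median of -0.11. SHMT1, the cytosolic serine hydroxymethyltransferase, fell (-0.26, SE 0.058, adjusted p = 0.0466), with signals of 6.85, 6.66 and 6.73 in treated cultures, against 7.06, 6.97 and 6.99 in untreated cultures. It too kept its call only without treated replicate 1. MTHFD2, a mitochondrial enzyme of the same cycle, was higher in all treated cultures but did not pass (0.17, adjusted p = 0.0525). It passed with repeated quantile normalization (adjusted p = 0.0434) and with background subtraction, without dim genes, with trend and robust settings or with array weights (adjusted p of 0.0138 to 0.0280), so a rise outside breakdown depended on the setting.

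No gene of purine synthesis (14 measured, 3 at an unadjusted p under 0.05, median -0.04) and no nucleoside transporter (7 measured, 1 at an unadjusted p under 0.05, median -0.001) passed limma's test. Neither count at an unadjusted p under 0.05 exceeded the 22.6% of all genes as a share of its list. The smallest adjusted p among purine genes were those of PRPS1 (-0.14, adjusted p = 0.073), which makes the activated ribose, and PAICS (-0.13, adjusted p = 0.0748). Both passed with background subtraction (adjusted p of 0.0405 and 0.0411), without dim genes (0.0229 and 0.0245) and with trend and robust settings (0.0336 and 0.0300). Among the transporters, SLC29A1 (-0.11, adjusted p = 0.184) and SLC29A4 (-0.11, adjusted p = 0.259) came first.

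Genes of the replication fork were listed for comparison. Of 29, 20 fell and none rose, against 3.27% and 2.93% of all genes. At an unadjusted p under 0.05 there were 25, against 22.6% of all genes. All 29 had lower means in treated cells, as had 13050 of all 22411 genes. The median was -0.32, with GINS2 (-0.75), MCM5 (-0.64), CDC6 (-0.53) and MCM6 (-0.51) among the falls. Of 23 genes of mitosis 6 fell and none rose, with 16 at an unadjusted p under 0.05 and a median of -0.18. The falls included CCNB1 (-0.38), AURKA (-0.34), PLK1 (-0.29) and PRC1 (-0.29). Without treated replicate 3 the falls numbered 7 in the fork list and 2 in the mitosis list, without untreated replicate 3 they numbered 10 and 2, and without untreated replicate 1 they numbered 11 and 3. Without untreated replicate 2 the mitosis list had 3. The mitosis list had 12 falls with background subtraction, without dim genes, with trend and robust settings or with array weights, against 2 with the replicate block and 1 in the fit of every probe set, where the fork list had 9. The medians of the 8 enzymes and of all genes were -0.19 and -0.02. The part that the share of cells in each phase has in the enzymes' changes was not tested.

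**Figure D4:**
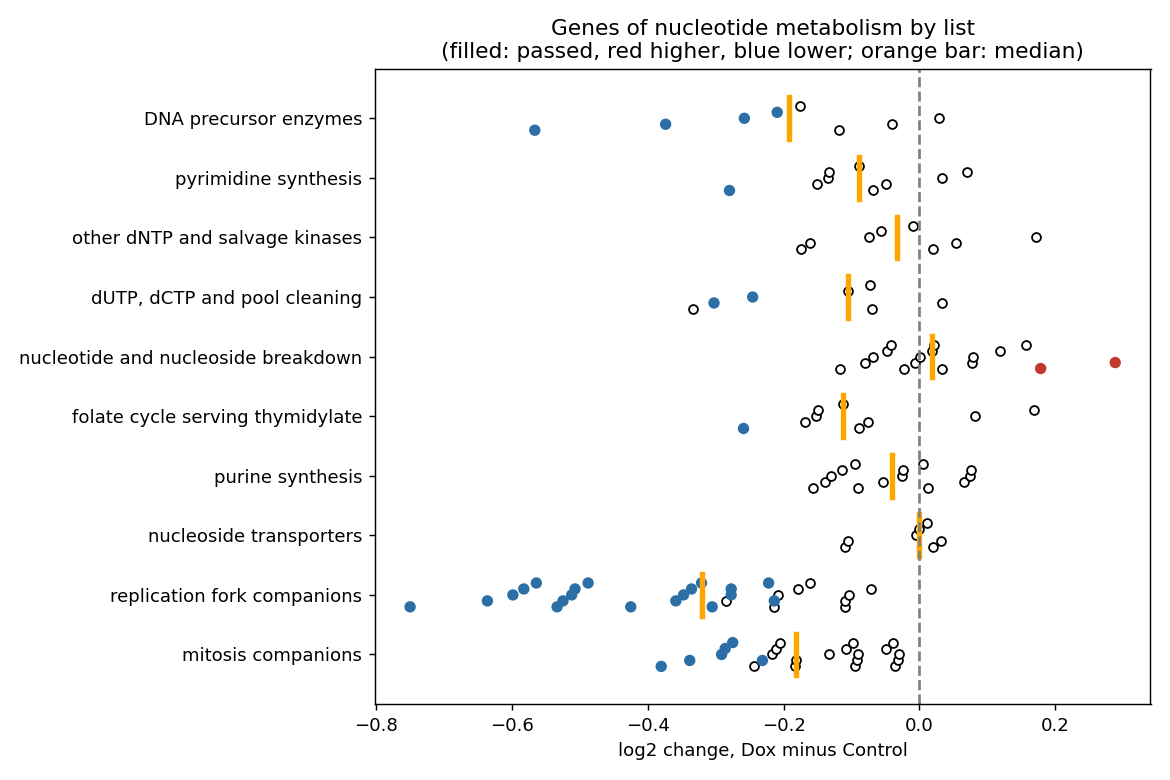
Log2 change, treated minus untreated (horizontal axis), of each measured gene in the 8 DNA precursor enzymes, 7 further lists of nucleotide metabolism and 2 lists of replication fork and mitosis genes, with 1 circle per gene, filled where limma's adjusted p was under 0.05, and an orange bar at the list's median. In the fit shown, filled circles to the right of 0 appear in the breakdown list alone, and the fork list lies farthest to the left, with a median of -0.32.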

How the data were processed

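The authors deposited 1 log2 value per probe set and array, processed by RMA, per the submitters' processing notes. Its version, the build and the annotation are not given in the sources used here. Of 70523 probe sets, 23781 carried 1 gene symbol, 1543 several, and 45199 were unnamed here. Old symbols were updated through RefSeq (306 changed). The brightest single-symbol probe set stood for each of 22411 genes.

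The test was limma's moderated one (version 3.58.1, R 4.3.3; lmFit and eBayes on treatment alone), with Benjamini-Hochberg adjustment over all genes. The procedure was tested on simulated data. The number of arrays limits the precision. No detection call is attached, so olfactory receptor genes served as a yardstick.

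The enzymes, lists and tests were chosen with earlier results of these data known. Genes named from each list are the 2 with the smallest adjusted p and up to 2 further with the largest changes past the threshold, beside SLBP, RRM2B, TYMSOS, ENOSF1 (not analysed here) and the 3 closest profiles to TYMS, RRM2 and TK1. CDX1, CDX2, LGALS4, COL1A1 and C2orf48 were named after their values were seen. Alternatives were other normalizations, a background subtraction, a filter on dim genes, eBayes and array weight settings, probe set rules, the replicate block, and each array left out. Promoter motifs were chosen after the expression values were seen.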

Additional observations from a re-analysis of the deposited data

How the results depend on the processing

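SLBP kept its direction and its call in all 15 alternatives, with log2 changes of -0.81 to -0.72. The 8 enzymes kept their direction in all 15 as well, except CAD, which had -0.0046 without treated replicate 1 and up to 0.054 when another array was left out. The number of enzymes that fell was 4; it was 2 (TYMS and TK1) with the replicate number as a block, 0 in a fit of every probe set, which tests 70523 features, and 0 to 3 when 1 array was left out. The value of 0 came without treated replicate 3, where TYMS had adjusted p = 0.0524. Without treated replicate 2 or untreated replicate 1 or 3 the number was 1 (TYMS), and without untreated replicate 2 it was 2. None of the 8 rose in any alternative. In the other settings the number stayed within 1.5 times of 4.

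Over all genes 1388 were called. The number was 2162 after background subtraction, 2569 once dim genes were dropped, 3225 with array weights, 344 in the fit of every probe set, 331 with the replicate block, and 132 to 1098 when 1 array was left out. In the 7 lists around the enzymes 6 genes were called. The number was 13 after background subtraction, 16 once dim genes were dropped, 12 with trend and robust settings, 17 with array weights, 0 in the fit of every probe set, 0 with the replicate block, and 0 to 4 when 1 array was left out. Fits with fewer arrays have less power. The fits that left out 1 array all had the same number of arrays. Over all genes they called 132 without treated replicate 3 and 1098 without treated replicate 1. In the fit with array weights, treated replicates 1, 2 and 3 had weights of 0.55, 0.48 and 2.96. The cause of the different counts was not tested, for the fits that left out 1 array or for the remaining settings.

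When all probe sets of a gene were averaged, which adds the dimmer C2orf48 probe set to RRM2, the shift of RRM2 minus the RRM1 probe set was -0.00051 and that of RRM2 minus RRM2B was -0.36. Over all genes, same-numbered cultures did not deviate together (r of 0.030, -0.00056 and -0.016), and other pairs had r of -0.0996 to 0.104. That does not settle whether the numbers pair the cultures, since single genes can differ from the whole. With the replicate block the SE of TK1 was 0.034, against 0.10 without it, while that of DUT was 0.053, against 0.047. Without a detection call, signal over background limits the dim genes of the lists. All 8 enzymes lay above the olfactory receptor level, as did 14783 of all 22411 genes. The call of DUT, the dimmest of the 8, changed with background subtraction (limma adjusted p of 0.0757 without it and 0.0428 with it).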
